A study of Mus musculus with 8 samples.

Results

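The S100 proteins, the annexins and the scaffold protein AHNAK were followed at the RNA level in mouse CD8+ T cells. The rule took 10 genes by their symbols from a table of 22520 rows, and all 10 were present: *S100a4*, *S100a6*, *S100a10*, *S100a11*, *S100a13*, *Anxa1*, *Anxa2*, *Anxa5*, *Anxa6* and *Ahnak*. CD8+ T cells of wild-type mouse spleens had been held for 6 days under anti-CD3, anti-CD28 and IL-2, a culture that drives them towards exhaustion. From day 3 the medium held 40 µM DADA (diisopropylamine dichloroacetate, an inhibitor of pyruvate dehydrogenase kinase) in 4 samples and an equal volume of its solvent DMSO in the other 4. No genetic change separates the groups, although the genotype field of the labels reads "control" and "model". The strain and age of the mice behind these cells are not tied to this experiment in the sources used here. The samples are called biological replicates, but whether each came from its own mouse or its own well is not said, so p-values measure the spread between these samples. The culture began from spleen cells enriched by negative magnetic selection and stands for chronic stimulation by antibody, not for a tumor.

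S100 proteins are small calcium sensors with a pair of EF-hand loops, which usually work as dimers and bind a target protein once calcium rises. Annexins bind negatively charged lipids of the inner membrane face in a calcium-dependent way and take part in membrane repair, vesicle traffic and the anchoring of actin. Both families meet at the membrane, where a dimer of S100A10 bridges a pair of annexin A2 molecules and the giant protein AHNAK docks onto this complex. In T cells, S100A4, S100A6, annexin A1, annexin A2 and AHNAK are best known from effector and memory cells, in which their transcripts are more abundant than in naive cells.

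DADA-treated cells held more RNA of most of these genes. Among the genes that passed the filter on low values, *Anxa2* rose the most, 2.73-fold in mean FPKM, followed by *S100a6* at 2.65-fold and *Ahnak* at 1.69-fold. *S100a13*, *S100a10*, *Anxa6* and *S100a11* were also called higher, by 1.40-fold or less. *Anxa5* did not pass the test. *S100a4* and *Anxa1*, which are textbook effector and memory T cell transcripts, did not exceed 1.36 FPKM in any library. FPKM are fragments divided by the length of the transcript and by the mapped fragments of the library. Levels of different genes can therefore be set side by side only roughly, because biases that differ between genes were not tested. Fold changes below are differences of log2(FPKM + 1), tested with limma over 10666 rows (1 FPKM or more in 4 or more libraries), and called at an adjusted p-value (Benjamini-Hochberg) under 0.05. This scale understates changes of low genes. Of the 10 genes, 8 passed this filter, of which 7 were called higher and 0 lower. This has to be read against a wide response, because 66.2% of all rows tested were called, 30.9% higher and 35.3% lower with DADA. The median log2 fold change was 0.34 over the 8 genes and -0.02 over all rows tested.

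The sequences just upstream of the transcription start are given for the 3 genes of the set with the largest called rise, for *S100a4*, the neighbour of *S100a6*, and for *Anxa5*, which was not called. They come from RefSeq on the build GRCm38.p6, where 8 of the 10 genes had an entry (*S100a10* and *Anxa6* had none), and each covers the 250 bases before the start, 5′ to 3′. The deposited values name GRCm39 in their processing notes, and no coordinate of that build is used here. Capitals mark matches to 6 short motifs. The AP-1 motif, spelled TGANTCA, the interferon response element, spelled GAAANNGAA, the core of the hypoxia response element, spelled ACGTG, the E-box, spelled CACGTG and so holding that core, and the GC box, spelled GGGCGG, were searched on both strands, and the TATA box, spelled TATAAA, on the given strand.
Anxa2 (chr9:69453433-69453682, plus strand): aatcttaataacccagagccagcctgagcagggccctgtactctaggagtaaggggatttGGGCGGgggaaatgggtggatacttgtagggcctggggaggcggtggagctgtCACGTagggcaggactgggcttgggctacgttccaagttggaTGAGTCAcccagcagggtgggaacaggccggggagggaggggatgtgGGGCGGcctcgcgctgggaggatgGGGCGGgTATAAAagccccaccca
Ahnak (chr19:8989034-8989283, plus strand): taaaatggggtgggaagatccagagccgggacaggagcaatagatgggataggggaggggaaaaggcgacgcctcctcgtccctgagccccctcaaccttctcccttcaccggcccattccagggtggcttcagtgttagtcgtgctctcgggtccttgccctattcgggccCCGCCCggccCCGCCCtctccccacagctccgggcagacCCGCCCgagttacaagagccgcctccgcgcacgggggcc
S100a6 (chr3:90612644-90612893, plus strand): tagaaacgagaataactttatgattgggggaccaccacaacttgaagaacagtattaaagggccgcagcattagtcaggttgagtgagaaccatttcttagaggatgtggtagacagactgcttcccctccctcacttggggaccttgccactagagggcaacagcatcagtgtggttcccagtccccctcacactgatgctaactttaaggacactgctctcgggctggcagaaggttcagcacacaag
S100a4 (chr3:90603520-90603769, plus strand): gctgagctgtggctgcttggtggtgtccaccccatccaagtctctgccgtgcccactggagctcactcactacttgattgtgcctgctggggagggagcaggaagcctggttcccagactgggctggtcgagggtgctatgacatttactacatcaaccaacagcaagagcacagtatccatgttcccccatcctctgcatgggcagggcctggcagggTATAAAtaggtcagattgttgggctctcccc
Anxa5 (chr3:36475888-36476137, minus strand): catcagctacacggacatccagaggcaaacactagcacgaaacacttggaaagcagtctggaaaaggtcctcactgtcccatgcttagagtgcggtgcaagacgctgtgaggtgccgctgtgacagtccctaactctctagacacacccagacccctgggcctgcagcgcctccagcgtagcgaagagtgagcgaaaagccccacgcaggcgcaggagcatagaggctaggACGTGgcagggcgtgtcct

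The *Anxa2* window held 1 AP-1 match, 1 ACGTG, 3 GC boxes and a TATA box match close to the start. The *Ahnak* window had 3 GC boxes and no other match, with 66.4% G and C. The *S100a6* window had no match to any of the 6 motifs, whereas that of its neighbour *S100a4* had a TATA box match. Of 32851 windows of the same length in the table, 6.75% held the AP-1 motif, 16.6% ACGTG, 32.7% the GC box, 7.59% TATAAA, 6.02% the E-box and 7.13% the interferon element. Among the 8 windows of the set, the AP-1 motif was in 2, ACGTG in 3, the GC box in 3, TATAAA in 3, the E-box in 1 and the interferon element in 0. A match describes the letters only and is not a binding site, and no match says nothing about the factor.

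The steps between the lowest FPKM values of 4292 genes with a single transcript gave an estimated depth of 13740000 to 16490000 mapped fragments with DMSO and 14970000 to 18880000 with DADA, with 39.2% to 46.0% of the low values within 0.1 of a whole fragment where chance gives 20%. The 6 T cell markers in the table, *Cd3d*, *Cd3e*, *Cd3g*, *Cd8a*, *Cd8b1* and *Thy1*, summed to 1053 to 1065 FPKM with DMSO and 1185 to 1241 FPKM with DADA. All 6 were called higher. *Cd3d*, *Cd3e*, *Cd3g* and *Thy1* are shared with CD4+ T cells, so the sum does not measure CD8+ T cells alone. The 10 myeloid markers summed to 3.53 to 3.99 FPKM with DMSO and 5.50 to 6.04 FPKM with DADA, mostly *Cd68* (mean 3.66 and 5.32 FPKM), the 1 of them that passed the filter and was called higher, while *Csf1r*, *Adgre1*, *Csf3r* and *Cd163* were listed at 0 in every library. The part of either shift in the results below was not tested. Markers of CD4+ T cells summed to 16.1 to 17.2 and 15.2 to 15.7 FPKM, mostly *Zbtb7b*, and those of B cells to 2.59 to 3.54 and 2.36 to 3.09 FPKM, with *Pax5* at 0. The sums of NK cell, erythroid, platelet and stromal markers did not exceed 0.346, 0.426, 0.560 and 0.356 FPKM in any library. *S100a8* and *S100a9*, the S100 genes of neutrophils and monocytes, were listed at 0 in all 8 libraries. In bulk RNA, more cells of a type and more RNA per cell cannot be told apart.

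**Figure D1:**
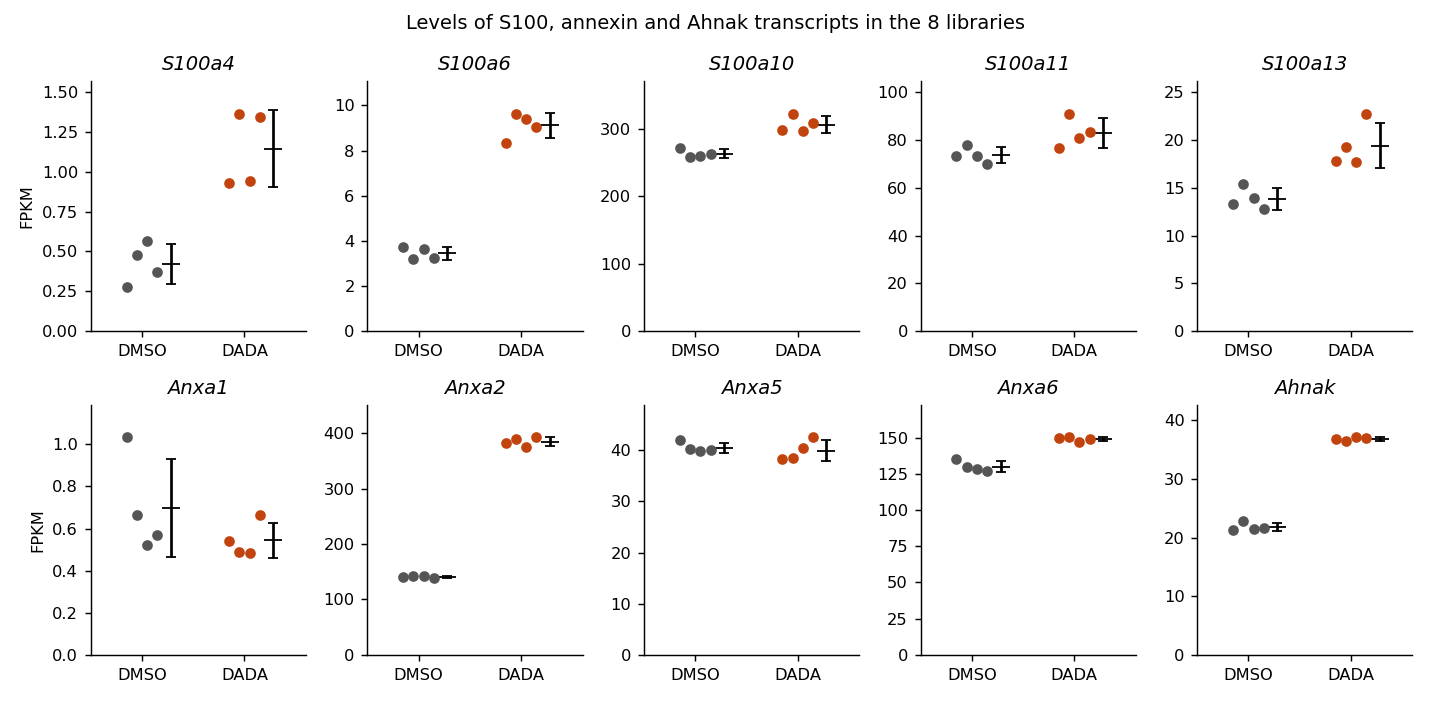
FPKM of the 10 genes in each of the 4 DMSO (grey) and 4 DADA (orange) libraries, 1 point per library, each panel with its own linear axis from 0, and the mean with its SD beside the points. The groups are far apart for *Anxa2*, *S100a6* and *Ahnak*, closer for *S100a10* and *Anxa6*, and overlap for *S100a11*, *Anxa5* and *Anxa1*.

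Annexin A2 is the lipid-binding side of the complex with S100A10. *Anxa2* (ENSMUSG00000032231) was at 141, 142, 142 and 139 FPKM in DMSO 1 to 4 and at 381, 390, 375 and 392 FPKM in DADA 1 to 4. The lowest DADA library lay far above the highest DMSO library, and the spread within each group was small beside the gap. The mean went from 141 ± 1.64 to 385 ± 7.96 FPKM (SD, n = 4). On the log2 scale the difference was 1.44 (95% interval 1.40 to 1.49, limma, adjusted p = 1.31e-11). By size of increase it ranked 181 of the 10666 rows tested. GENCODE M21 places an antisense gene, *Gm16144*, on the other strand of *Anxa2*, and since the sources do not say whether strand was used, its reads cannot be told apart from those of *Anxa2*.

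*S100a10* (ENSMUSG00000041959) encodes the partner of annexin A2, an S100 protein that binds its target without calcium. It was the most abundant of the 10 transcripts with DMSO, at 272, 258, 259.7 and 262 FPKM, and stood at 298, 322, 296 and 308 FPKM with DADA. Each DADA library was above each DMSO library, but by a narrow margin beside that of *Anxa2*. The mean rose from 263 ± 6.11 to 306 ± 12.03 FPKM, or by 0.22 on the log2 scale (95% interval 0.15 to 0.29, limma, adjusted p = 1.24e-04). Under quantile normalization the difference was 0.13.

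The unequal change of the 2 partners turned their order. For 1 *Anxa2* transcript, the DMSO libraries held 1.93, 1.82, 1.82 and 1.89 *S100a10* transcripts per length, and the DADA libraries 0.781, 0.826, 0.788 and 0.785. In FPKM, *S100a10* was thus the larger of the pair in the 4 DMSO libraries and the smaller in the 4 DADA libraries. Which of the 2 is larger rests on FPKM being comparable between genes. The change of the ratio between the groups does not, where a bias is the same in all libraries. The log2 ratio fell by 1.23, from 0.90 ± 0.0412 to -0.33 ± 0.0373 (SD, n = 4, two-sided exact permutation test, p = 0.0286, the smallest that 70 assignments can give). Transcript ratios do not give the ratio of the proteins.

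*Ahnak* (ENSMUSG00000069833) encodes a scaffold of the inner membrane face that has been linked to calcium entry in T cells. It was at 21.3, 22.7, 21.4 and 21.6 FPKM with DMSO and at 36.7, 36.4, 37.1 and 37.0 FPKM with DADA. The groups did not overlap, and the DADA libraries differed from each other by less than the DMSO libraries did. The log2 fold change was 0.73 (95% interval 0.67 to 0.79, limma, adjusted p = 9.41e-09). Because *Anxa2* rose further, the log2 ratio of *Ahnak* to *Anxa2* fell by 0.69, from -2.69 ± 0.0439 to -3.39 ± 0.0366 (SD, n = 4, two-sided exact permutation test, p = 0.0286). In plain ratios, the DMSO libraries held between 0.150 and 0.161 *Ahnak* per *Anxa2*, and the DADA libraries between 0.0934 and 0.0989.

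**Figure D2:**
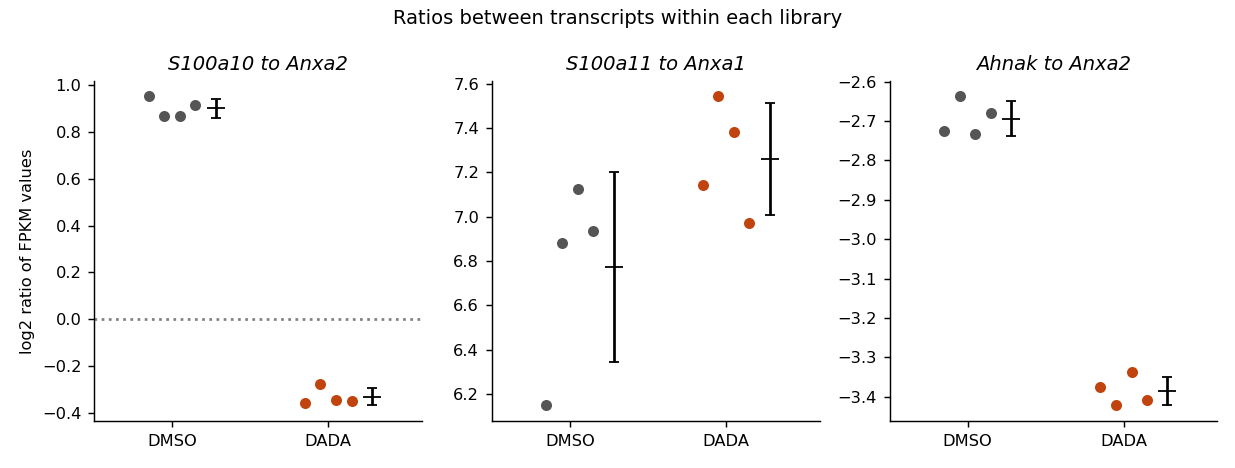
Log2 ratio of the FPKM values of 2 genes within each library, for *S100a10* to *Anxa2*, *S100a11* to *Anxa1* and *Ahnak* to *Anxa2*, with 1 point per library (DMSO grey, DADA orange), the mean with its SD, and, in the first panel, a dotted line where both levels are equal. Each panel has its own axis, which does not start at 0. The *S100a10* to *Anxa2* ratio lies above the line in the 4 DMSO libraries and below it in the 4 DADA libraries, while the *S100a11* to *Anxa1* ratios of the groups overlap.

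*S100a6* (ENSMUSG00000001025), also known as calcyclin, is a calcium sensor of cycling cells. It was low with DMSO, at 3.71, 3.19, 3.66 and 3.22 FPKM, and reached 8.35, 9.63, 9.41 and 9.05 FPKM with DADA. No DMSO library came within 4 FPKM of a DADA library. The log2 fold change was 1.19 (95% interval 1.05 to 1.32, limma, adjusted p = 6.85e-08), the second largest of the set, and ranked 279 of all rows tested. *Cacybp*, which encodes a ubiquitin ligase adaptor named after its binding to calcyclin, went the other way, from 110.0 ± 3.05 to 59.8 ± 1.99 FPKM (log2 fold change -0.87, limma, adjusted p = 4.57e-09).

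*S100a4* (ENSMUSG00000001020), also called metastasin, binds non-muscle myosin. It was at 0.279, 0.476, 0.564 and 0.369 FPKM with DMSO and at 0.932, 1.36, 0.945 and 1.34 FPKM with DADA. The 4 DADA libraries were all above the 4 DMSO libraries (two-sided exact permutation test, p = 0.0286), but only DADA 2 and DADA 4 passed 1 FPKM, so the gene failed the filter. At the estimated depth these levels were about 1.73 to 3.27 fragments per library with DMSO and 5.90 to 10.6 with DADA. The pooled ratio, from about 10 and 34 fragments, was 2.89 with a 95% interval of 1.40 to 6.56 (exact, for counting error only). In a fit without the filter, in which 24.8% of 16167 rows were called higher, *S100a4* differed by 0.59 on the log2 scale (limma, adjusted p = 8.15e-04), and by 1.27 with a pseudocount of 0.1. A gene model that runs into *S100a4*, *Gm42674*, shares 53.8% of its 75-base stretches and was listed at 0 in every library, so the level depends on how reads were split between both.

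*S100a11* (ENSMUSG00000027907), a sensor of membrane injury and partner of annexin A1, was at 73.3, 78.1, 73.2 and 69.8 FPKM in DMSO libraries and 76.6, 91.0, 80.8 and 83.4 FPKM with DADA. DADA 1 lay below DMSO 2, so the groups overlapped. The log2 fold change of 0.17 (95% interval 0.05 to 0.28) was called by limma (adjusted p = 0.0151), whereas the two-sided exact permutation test of the gene alone gave p = 0.0571. The processed pseudogenes *Gm12854* and *Gm7665*, which are not in the table, share 37.8% of its 75-base stretches. The level depends on how reads of these stretches were assigned, and the size of that effect was not tested.

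*S100a13* (ENSMUSG00000042312), which takes part in the release of proteins that lack a signal peptide, measured 13.3, 15.4, 13.95 and 12.7 FPKM in DMSO libraries and 17.8, 19.3, 17.7 and 22.8 FPKM with DADA. All DADA libraries were above the DMSO libraries, with DADA 4 the highest. The log2 fold change was 0.45 (95% interval 0.27 to 0.63, limma, adjusted p = 6.38e-04).

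Annexin A6 is a double-length annexin that organizes membrane domains. *Anxa6* (ENSMUSG00000018340) was at 136, 129, 128 and 127 FPKM in DMSO libraries and 149.9, 150.2, 147 and 149 FPKM with DADA. The groups did not overlap. The log2 fold change was 0.20 (95% interval 0.14 to 0.25, limma, adjusted p = 5.42e-05), small beside that of *Anxa2* at a similar starting level.

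Annexin A5 is the protein used to stain phosphatidylserine on dying cells. *Anxa5* (ENSMUSG00000027712) was at 41.9, 40.1, 39.8 and 40.1 FPKM in DMSO libraries and 38.2, 38.5, 40.5 and 42.5 FPKM with DADA. Libraries of both groups were intermixed. The log2 fold change of -0.02 had a 95% interval of -0.10 to 0.06 (limma, adjusted p = 0.631), and its sign turned with the scaling (0.01 when libraries were rescaled to 1 total).

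Annexin A1 is a glucocorticoid-induced anti-inflammatory protein that signals through formyl peptide receptors. *Anxa1* (ENSMUSG00000024659) was at 1.03, 0.663, 0.524 and 0.569 FPKM in DMSO libraries and 0.541, 0.488, 0.484 and 0.664 FPKM with DADA. Only DMSO 1 reached 1 FPKM, and the other 7 libraries overlapped. In the fit without the filter its log2 fold change was -0.13 (limma, adjusted p = 0.290), -0.28 with a pseudocount of 0.1 and -0.04 without DMSO 1. A non-coding gene, *1500015L24Rik*, lies on the opposite strand. *S100a11* exceeded *Anxa1* between 71.0-fold and 140-fold with DMSO and between 126-fold and 186-fold with DADA. The difference of the log2 ratio, 0.49 (two-sided exact permutation test, p = 0.0571), was 0.28 without DMSO 1 and did not pass 0.05. Of the receptor genes, *Fpr3* was listed at 0 in every library and *Fpr1* and *Fpr2* were above 0 in 1 DADA library each, at 0.0332 and 0.0426 FPKM.

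**Figure D3:**
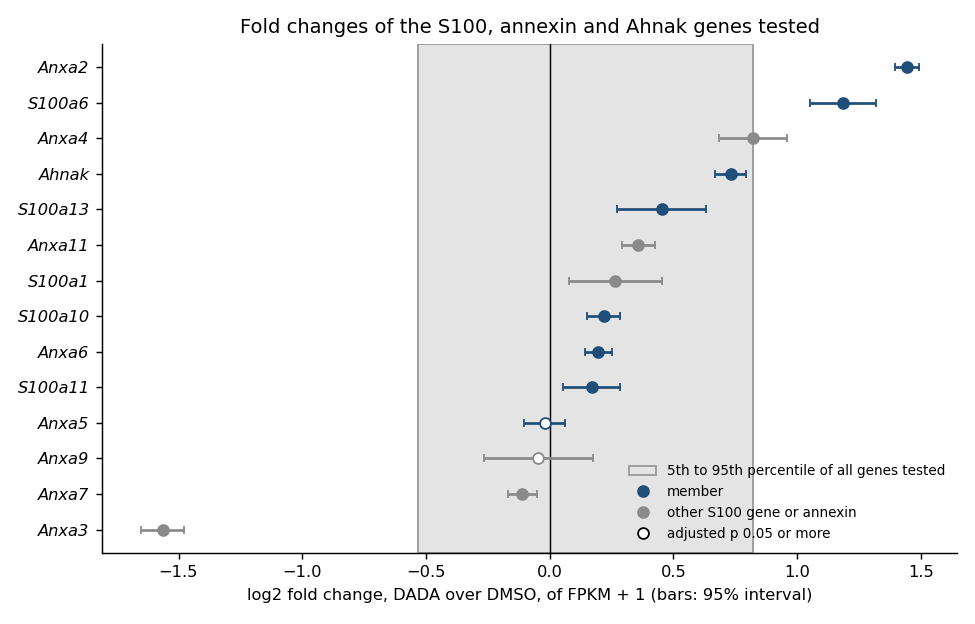
Log2 fold change (DADA over DMSO, of FPKM + 1) with its 95% interval for the 14 S100, annexin and *Ahnak* genes that passed the filter. Blue points are genes of the set, grey points other family members, open points were not called, and the shaded band holds the 5th to 95th percentile of all rows tested (-0.53 to 0.82). *Anxa2* and *S100a6* lie right of the band, *Anxa4* just past its right edge and *Anxa3* left of it.

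The order of the 10 levels differed between the groups at both ends. With DMSO it ran *S100a10*, *Anxa2*, *Anxa6*, *S100a11*, *Anxa5*, *Ahnak*, *S100a13*, *S100a6*, *Anxa1* and *S100a4*, where only the ranges of *Anxa1* and *S100a4* overlapped. With DADA, *Anxa2* came before *S100a10*, *S100a4* came before *Anxa1*, and no 2 neighbours overlapped. *Ahnak* came close to *Anxa5*, with 36.4 to 37.1 against 38.2 to 42.5 FPKM. The change at the low end rests on few fragments, about 5.90 to 10.6 of *S100a4* per DADA library. The places of *S100a4* and *S100a11* also depend on how reads of shared stretches were assigned. The whole order rests on FPKM being comparable between genes, which was not tested. The 5 S100 genes summed to 348 to 362 FPKM per library with DMSO and 402 to 443 with DADA. The 4 annexins of the set summed to 306 to 319 FPKM with DMSO and to 563 to 584 with DADA, mostly through *Anxa2*. The groups did not overlap for 6 of the 8 genes that passed the filter, beside 60.6% of all rows tested.

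The other genes of both families were looked up in full. Of 8 further annexins, 5 passed the filter, with 2 called higher, 2 lower and 1 not called (median log2 fold change -0.05). *Anxa3* (ENSMUSG00000029484), an annexin best known from neutrophil granules, fell the most, from 24.4, 24.8, 25.3 and 23.6 FPKM to 7.39, 8.16, 7.38 and 7.65 FPKM. Every DADA library was at less than 9 FPKM and every DMSO library at more than 23 FPKM. Its log2 fold change of -1.56 (95% interval -1.65 to -1.48, limma, adjusted p = 3.96e-10) ranked 16 among the decreases of all rows tested. *Anxa4*, a regulator of epithelial secretion and exocytosis, rose from 10.0 ± 0.904 to 18.4 ± 1.00 FPKM (log2 fold change 0.82, limma, adjusted p = 1.18e-06). *Anxa11*, which tethers RNA granules to lysosomes, rose from 22.2 ± 0.244 to 28.7 ± 0.934 FPKM (log2 fold change 0.36, limma, adjusted p = 2.55e-06). *Anxa7* fell from 43.5 ± 0.478 to 40.2 ± 1.14 FPKM (log2 fold change -0.11, limma, adjusted p = 0.00382), and *Anxa9* was not called at 3.19 ± 0.293 and 3.09 ± 0.595 FPKM. *Anxa8*, *Anxa10* and *Anxa13* were listed at 0 in every library.

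Of 13 further S100 genes, 7 were above 0 in any library and 1, *S100a1*, passed the filter. *S100a1*, a partner of calcium pumps in muscle, was at 6.33 ± 0.799 FPKM in DMSO libraries and 7.79 ± 0.713 FPKM with DADA (log2 fold change 0.27, limma, adjusted p = 0.0186), with overlapping groups. *S100a3* was listed at 0 in DMSO 1 and DMSO 3, at 0.208 and 0.0992 FPKM in DMSO 2 and DMSO 4, and between 0.274 and 0.497 FPKM with DADA. *S100a5*, *S100a7a*, *S100a14*, *S100b* and *S100z* did not exceed 0.145 FPKM in any library. *S100a2*, *S100a7l2*, *S100a8*, *S100a9*, *S100a16* and *S100g* were listed at 0 throughout.

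All 5 S100 genes of the set lie on chromosome 3. In both groups their mean levels increased in gene order from *S100a4* through *S100a6* and *S100a11* to *S100a10*. *S100a13*, which comes before these, broke the order with a level above those of *S100a4* and *S100a6*. Other genes that lie between *S100a6* and *S100a11*, such as *S100a8* and *S100a9*, were listed at 0. The order therefore holds only among the genes picked and is not a gradient along the chromosome. In GENCODE M21, *S100a3*, *S100a2*, *S100a4*, *S100a5* and *S100a6* come in this order on the plus strand, and *S100a11* and *S100a10* lie next to each other beyond a run of epidermal genes. *S100a4* and *S100a6* had ratios of the group means of 2.71 and 2.65, at levels 8.16 times apart with DMSO. The pooled *S100a4* ratio, from about 10 and 34 fragments, had an interval of 1.40 to 6.56 for counting error only. Whether both genes changed alike cannot be read from a ratio this wide. *S100a3*, of the same run, had a ratio of 4.66 at levels of no more than 0.497 FPKM. *S100a5*, annotated between *S100a4* and *S100a6*, was listed at 0 in 7 of 8 libraries.

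**Figure D4:**
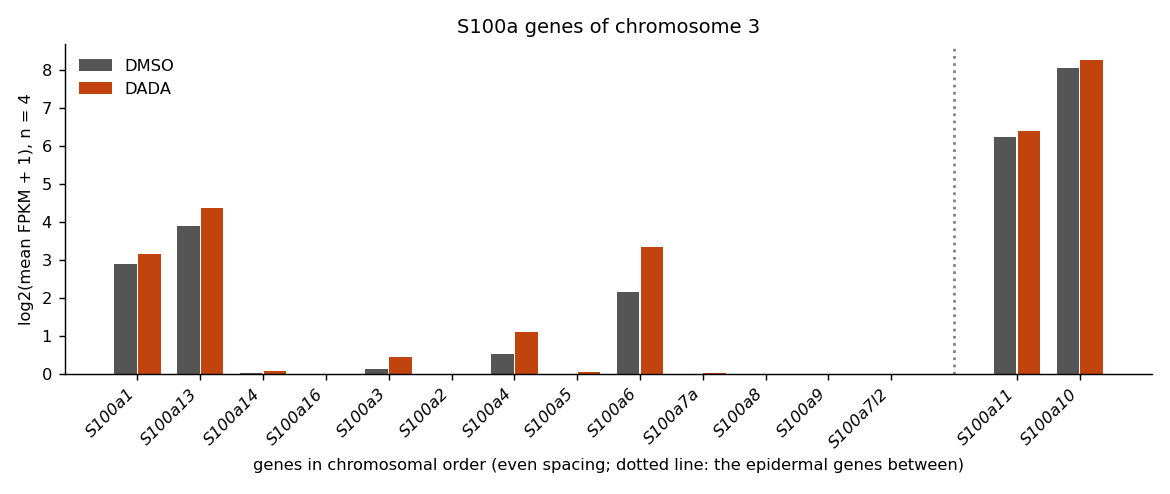
Mean level, as log2(mean FPKM + 1) from 4 libraries per group, of the S100a genes of chromosome 3 in their GENCODE M21 order, evenly spaced, with the epidermal gene run at the dotted line. The bars are highest for *S100a11* and *S100a10*, and *S100a8* and *S100a9* have none.

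Genes that work with these proteins went both ways, as did all rows tested, of which 30.9% were called higher and 35.3% lower. Of 26 genes for binding partners and receptors, 9 passed the filter, with 3 called higher, 3 lower and 3 not called (median log2 fold change 0.04). *Cacnb3*, a beta subunit of voltage-gated calcium channels, the subunit family that AHNAK binds, rose from 2.33 ± 0.183 to 6.30 ± 0.452 FPKM (log2 fold change 1.13, limma, adjusted p = 1.17e-07). *Cacnb1*, for another beta subunit, was at 0.572 to 0.991 FPKM with DMSO and 1.02 to 1.407 FPKM with DADA, so it passed the filter only through the DADA libraries (log2 fold change 0.30, limma, adjusted p = 0.0201 in the fit without the filter). Genes encoding the non-muscle myosin heavy chains, targets of S100A4, moved apart, with *Myh9* at -0.36 and *Myh10*, far less abundant, at 0.48. *Pla2g4a*, the cytosolic phospholipase A2 whose activity annexin A1 and S100A10 restrain, was at 2.10 to 2.53 FPKM with DMSO and 0.241 to 0.411 FPKM with DADA, so it passed the filter only through the DMSO libraries (log2 fold change -1.34, limma, adjusted p = 4.44e-07 in the fit without the filter). The counts of 3 higher and 3 lower include *Cacnb1* and *Pla2g4a*.

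Of 24 genes of calcium entry, release and calmodulin signaling, 23 passed the filter, with 10 higher, 5 lower and 8 not called (median 0.07). Over all rows tested, 30.9% were called higher and 35.3% lower. *Atp2b4*, a plasma membrane calcium pump, rose the most, from a mean of 4.18 to 13.8 FPKM (log2 fold change 1.52 with an SE of 0.0642, limma, adjusted p = 2.10e-08). The kinase genes *Camk4* and *Camk2d* rose by 0.38 and 0.37 on the log2 scale. *Stim2*, a calcium sensor of the endoplasmic reticulum, fell by 0.41, and *Ppp3r1*, the regulatory subunit of calcineurin, by 0.22.

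Of 17 membrane repair genes, 16 passed the filter, with 8 higher, 1 lower and 7 not called (median 0.11). The counts of this list and the next stand beside 30.9% higher and 35.3% lower over all rows tested. *Chmp4b*, the main filament subunit of ESCRT-III, rose from 87.5 ± 5.44 to 141 ± 6.16 FPKM (log2 fold change 0.68, limma, adjusted p = 6.35e-07). *Chmp5* (0.20) and *Chmp2b* (0.17) rose less, and *Tsg101* fell by 0.08 (limma, adjusted p = 0.0448). Of 13 genes that set or read phosphatidylserine at the surface, the lipid that annexin A5 binds, 9 passed, with 6 higher, 1 lower and 2 not called (median 0.33). The flippase gene *Atp11b* (0.59), the bridging factor gene *Mfge8* (0.59) and the scramblase gene *Plscr3* (0.37) rose, and *Plscr1* fell by 0.50.

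All 28 genes of the membrane cortex and cytoskeleton passed, with 11 higher, 12 lower and 5 not called (median -0.02). The shares over all rows tested were 30.9% higher and 35.3% lower. *Vim*, the intermediate filament vimentin that often accompanies *S100a6* and *Anxa2*, rose from 192 ± 6.07 to 359 ± 3.87 FPKM (log2 fold change 0.90, limma, adjusted p = 9.22e-10). *Lmna* (0.79) and *Vcl* (0.68), for lamin A/C and vinculin, rose from low levels. *Flna* fell by 0.31, *Rdx* by 0.26 and *Lsp1* by 0.23, which encode an actin crosslinker, the membrane linker radixin and an actin-binding protein of leukocytes.

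**Figure D5:**
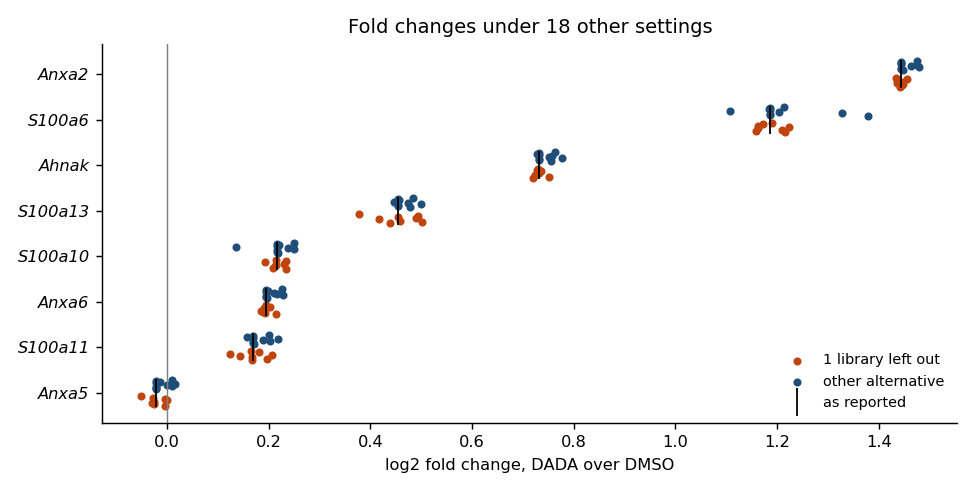
Log2 fold change (DADA over DMSO) of the 8 genes that passed the filter as reported (black bar), with 1 library left out (orange, 8 points) and under other settings (blue). All points stay on 1 side of 0 for each gene but *Anxa5*, and those of *S100a6* spread the most, from 1.11 to 1.38.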

How the data were processed

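Bulk RNA-seq libraries of mouse splenic CD8+ T cells, 4 with DMSO and 4 with DADA, were grouped by their titles. The values are FPKM as the authors deposited them, from paired reads of 150 bases. The submitters' processing notes name CASAVA 1.8.2, FastQC 0.11.9, HISAT2 2.0.5, StringTie 1.3.3, Picard 1.41 and SAMtools 0.1.18 and the build GRCm39 for mouse, without their roles. The labels and the paper name different library kits, and the use of strand is not given in the sources used here. FPKM holds no counts, so depth was estimated and count models were not used.

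Values were analysed as log2(FPKM + 1) with limma 3.58.1 in R 4.3.3 (lmFit, eBayes with a mean-variance trend, Benjamini-Hochberg over all rows tested), for rows with at least 1 FPKM in at least 4 libraries. The fit and the depth estimate were tested on simulated data. For ratios, all 70 assignments of the libraries were enumerated (exact permutation test, two-sided). Alternatives were another pseudocount, filter, scaling or variance model, the replicate number as a block, rescaling without rows that lack a gene identifier, and each library left out. The genes of the set and all lists were chosen with earlier results of these data known. Named were the genes of the set, all other S100 and annexin genes, and the 3 largest called changes per direction of each further list, other genes having been chosen after their values were seen. 1 gene that this rule names is not reported here. Shared 75-base stretches, gene order and overlaps used GENCODE M21. Figures were drawn with matplotlib 3.10.9.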

Additional observations from a re-analysis of the deposited data

Results flagged for a closer look

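Among 90 groups of 4 libraries (the S100, annexin and named genes above 0 in all libraries, and the 3 ratios), 6 had 1 library far from the other 3, judged by Dixon's ratio of the gap to the whole spread at its 95% level. Chance gives about 1 in 20 groups. In DMSO 1, *Anxa5* had 41.9 FPKM against 39.8 to 40.1 in the others (ratio 0.840), and *Stim2* at 19.8 against 21.6 to 21.8 FPKM (0.874). *Cacybp* stood at 115 FPKM in DMSO 4, the others at 108 to 109 FPKM (0.895). In DADA 4, *Lmna* was at 5.50 against 4.43 to 4.49 FPKM (0.942) and *Cacnb1* at 1.407 against 1.02 to 1.07 FPKM (0.857). The log2 ratio of *S100a10* to *Anxa2* was -0.28 in DADA 2 against -0.36 to -0.34 (0.837), far from the DMSO libraries at 0.87 to 0.95. The cause was not tested.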

How the results depend on the processing

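Over 18 alternatives, the 7 genes called higher stayed called in the same direction, and 0 were called lower. Without the filter, *S100a4* made 8 called higher. It did so too with libraries rescaled to the same total, where 11480 rows and all 10 genes passed the unchanged filter, against 10666 and 8. Under median-ratio scaling, and when rescaled after rows lacking a gene identifier were dropped, 8 genes passed and 7 were called higher. The added call thus goes with which rows passed the filter, and it is not shown to come from the scaling itself. *S100a11* came nearest to the threshold, with adjusted p between 0.00270 and 0.0427 and a log2 fold change of 0.12 to 0.21 with 1 library left out. *S100a10* was at 0.13 under quantile normalization and at 0.25 when rescaled to the same total. *Anxa5* was not called under any of them and turned to 0.0105 when rescaled to the same total, to 0.0106 when rows lacking a gene identifier were also dropped, and to 0.0166 under quantile normalization. *S100a4*, under the filter, was at 1.27 with a pseudocount of 0.1 against 0.59, and *Anxa1* at -0.28 against -0.13. Over all rows tested, 2458 to 4007 were called higher and 3283 to 4116 lower.

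The replicate numbers paired nothing that the data show, with correlations of -0.12 to 0.10 between the deviations of same-numbered libraries. With the replicate block, the ratios of *S100a10* and *Ahnak* to *Anxa2* kept their differences of -1.23 and -0.69, with p = 0.125 in an exact permutation test, the smallest that 4 pairs allow, and the block changed no call of a single gene in the set. With 1 library left out they stayed between -1.25 and -1.21 and between -0.71 and -0.67. The *S100a11* to *Anxa1* ratio depended on the low level of *Anxa1*: with 1 FPKM added to each level it was 0.30 (exact permutation test, p = 0.0286), and 0.28 to 0.61 with 1 library left out. Levels under 1 FPKM rest on few fragments, and depth limits what they show.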
